A study of Mus musculus with 10 samples.

Results

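A group of 10 genes that set the transcription of energy metabolism was followed in heart muscle cells (cardiomyocytes) of Actn2 knockout and heterozygote mice. Actn2 is the gene of the sarcomere Z-line protein alpha-actinin-2. The genes were taken by name from the 23337 genes of the count table: the coactivators Ppargc1a and Ppargc1b (PGC-1 alpha and beta), the estrogen-related receptors Esrra, Esrrb and Esrrg (ERR), the fatty-acid receptors Ppara and Ppard (PPAR), and the retinoid X receptors Rxra, Rxrb and Rxrg (RXR). All 10 were found in the table and all 10 passed the filter on low counts. Every animal had received the virus AAV9-cTNT-Cre on postnatal day 1, which carries the Cre recombinase under the cardiac troponin T promoter, and cells were collected on postnatal day 14. The knockout group (genotype Actn2-FF, 5 animals) had floxed sequence on both Actn2 alleles. The heterozygote group (Actn2-F+, 5 animals) had it on 1 allele and is the control, so the controls carried Cre, the virus and 1 cut allele as well. Cells were freed by collagenase perfusion and sorted by fluorescence. Polyadenylated RNA was counted. Neither the sex of the animals nor a batch is named in the labels.

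PGC-1 proteins do not bind DNA themselves. They dock on nuclear receptors and other factors and recruit the machinery that opens chromatin and starts transcription. ERR proteins bind their response element without a known natural ligand and drive genes of the respiratory chain and the citric acid cycle. PPAR proteins are switched on by fatty acids and drive fatty-acid uptake and oxidation. They bind DNA only as a pair with an RXR, and RXR is also the partner of the retinoic acid, thyroid hormone, vitamin D and liver X receptors. In the heart these factors are known for the switch to fatty-acid oxidation after birth.

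The clearest change was that of Rxrg, and the sequences before the start sites of the RXR genes are shown so that it can be compared with its relatives. The starts and sequences are those of RefSeq for build GRCm38.p6, all on the plus strand, in the 250 bases that end just before the start, and capitals mark matches to the motifs named after them. Rxrg has a pair of annotated starts, with windows at chr1:167598112-167598361 and chr1:167618015-167618264. The Rxra window is chr2:27676951-27677200 and the Rxrb window chr17:34031562-34031811, each the first of 2 in the table.
Rxrg, first start: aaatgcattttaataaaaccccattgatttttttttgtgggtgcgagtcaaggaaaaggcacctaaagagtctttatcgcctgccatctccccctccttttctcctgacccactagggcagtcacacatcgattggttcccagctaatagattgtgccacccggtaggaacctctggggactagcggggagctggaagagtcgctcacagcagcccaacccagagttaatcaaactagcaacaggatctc
Rxrg, second start: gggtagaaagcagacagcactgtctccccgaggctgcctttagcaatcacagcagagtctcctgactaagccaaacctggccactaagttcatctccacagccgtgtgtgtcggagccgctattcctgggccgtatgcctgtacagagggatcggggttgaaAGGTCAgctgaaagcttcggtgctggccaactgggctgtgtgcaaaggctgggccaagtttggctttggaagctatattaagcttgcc
Rxra, first start: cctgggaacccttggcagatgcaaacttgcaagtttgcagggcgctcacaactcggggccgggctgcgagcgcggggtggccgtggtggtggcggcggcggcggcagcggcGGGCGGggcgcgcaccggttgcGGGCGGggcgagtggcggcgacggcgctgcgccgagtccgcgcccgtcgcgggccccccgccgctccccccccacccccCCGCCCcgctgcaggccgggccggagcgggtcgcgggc
Rxrb, first start: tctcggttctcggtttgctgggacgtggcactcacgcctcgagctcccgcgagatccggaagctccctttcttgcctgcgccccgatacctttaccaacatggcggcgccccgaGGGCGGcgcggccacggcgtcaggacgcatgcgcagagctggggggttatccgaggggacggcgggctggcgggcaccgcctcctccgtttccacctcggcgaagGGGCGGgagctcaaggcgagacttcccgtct

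The letters AGGTCA, the half-site that nuclear receptors bind, were searched on both strands in windows that also take in the 50 bases after the start. They occur 88 bases before the second Rxrg start (capitals) and in 16.3% of the 32851 windows of all genes. The first Rxrg window holds none of the motifs searched. GC boxes (GGGCGG, both strands), which Sp-family factors bind, are the capitals of Rxra and Rxrb, and 35.7% of all windows hold at least 1. Neither Rxrg window holds a GC box. The first and second windows hold 4 and 0 for Rxra, and 2 and 4 for Rxrb. The share of G and C was 53.7% and 57.0% in the windows of Rxrg, 83.0% and 54.3% in those of Rxra and 68.7% and 82.0% in those of Rxrb, with a median of 52.7% over all windows. The second Rxra window, which is not printed, is thus like those of Rxrg in its share of G and C and its lack of GC boxes. It differs in holding 2 half-sites and 1 CpG (a C followed by a G), against 13 and 9 CpG in the windows of Rxrg. A match is a run of letters, and binding was not measured.

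Total counts ran from 8086656 to 25237696 per animal, and between 14286 and 14920 genes had at least 1 count. Actn2, which checks the labels, stood at 3366, 3454, 3474, 2930 and 2677 CPM (counts divided by a library total that TMM factors had adjusted, on the CPM scale) in heterozygotes 1 to 5 and at 1286, 1250, 1145, 1182 and 1220 CPM in knockouts 1 to 5. Its knockout level was 0.383 of that in the heterozygotes, so counts on the gene remained, and its protein was not measured. The 8 cardiomyocyte markers summed to 94603 to 118886 CPM in the heterozygotes and 90987 to 116495 CPM in the knockouts. Of these 8, 7 had a fold change below 1 (median log2 fold change -0.09), and Tnni3 was called lower. Endothelial markers (10 genes) summed to 667 to 1176 CPM in the heterozygotes, with heterozygote 4 highest, and to 417 to 746 CPM in the knockouts. All 10 had a fold change below 1, and 2 of them, Cldn5 and Egfl7, were called lower. Macrophage markers summed to 14.5 to 33.8 CPM in the heterozygotes and 8.33 to 11.5 CPM in the knockouts, with Csf1r called lower. Fibroblast sums were 330 to 538 and 318 to 648 CPM, and mural sums 440 to 671 and 528 to 674 CPM, with Cspg4 called higher. Of the adipocyte list, which summed to 71.1 to 107 and 61.3 to 92.5 CPM, Ucp1 and Adipoq were at 0 in all animals. Erythroid markers did not exceed 1.18 CPM in sum. Atrial markers summed to 4.13 to 69.4 CPM in the heterozygotes and to 16.2 to 348 CPM in the knockouts, with knockout 5 far above the others. The part of other cells in the results below was not tested. Some fits named there take the mean log2 CPM of the 10 endothelial markers as a covariate. Because all 10 leaned lower in the knockouts, such a fit cannot fully part this score from the genotype. In such pools fewer cells of a type and less RNA per cell cannot be told apart.

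The comparison of the genotypes asked whether the knockout of Actn2 is accompanied by a change in these regulators. By edgeR's quasi-likelihood F test with Benjamini-Hochberg adjustment over all 11870 tested genes, 2 of the 10 genes (20%) passed an adjusted p of 0.05, against 18.9% of all tested genes. The share of the regulators called is near that background. Rxrg was lower (8.64% of all tested genes were called lower) and Esrrg was higher (10.2% were called higher). In 9 of the 10 the log2 fold change was below 0, with a median of -0.32. Over all tested genes it was below 0 in 5904 of 11870, with a median of 0.0023. In 1 of the 10, Rxrg, the 2 groups did not overlap, against 14.7% of all tested genes (6.32% with the knockouts lower).

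**Figure D1:**
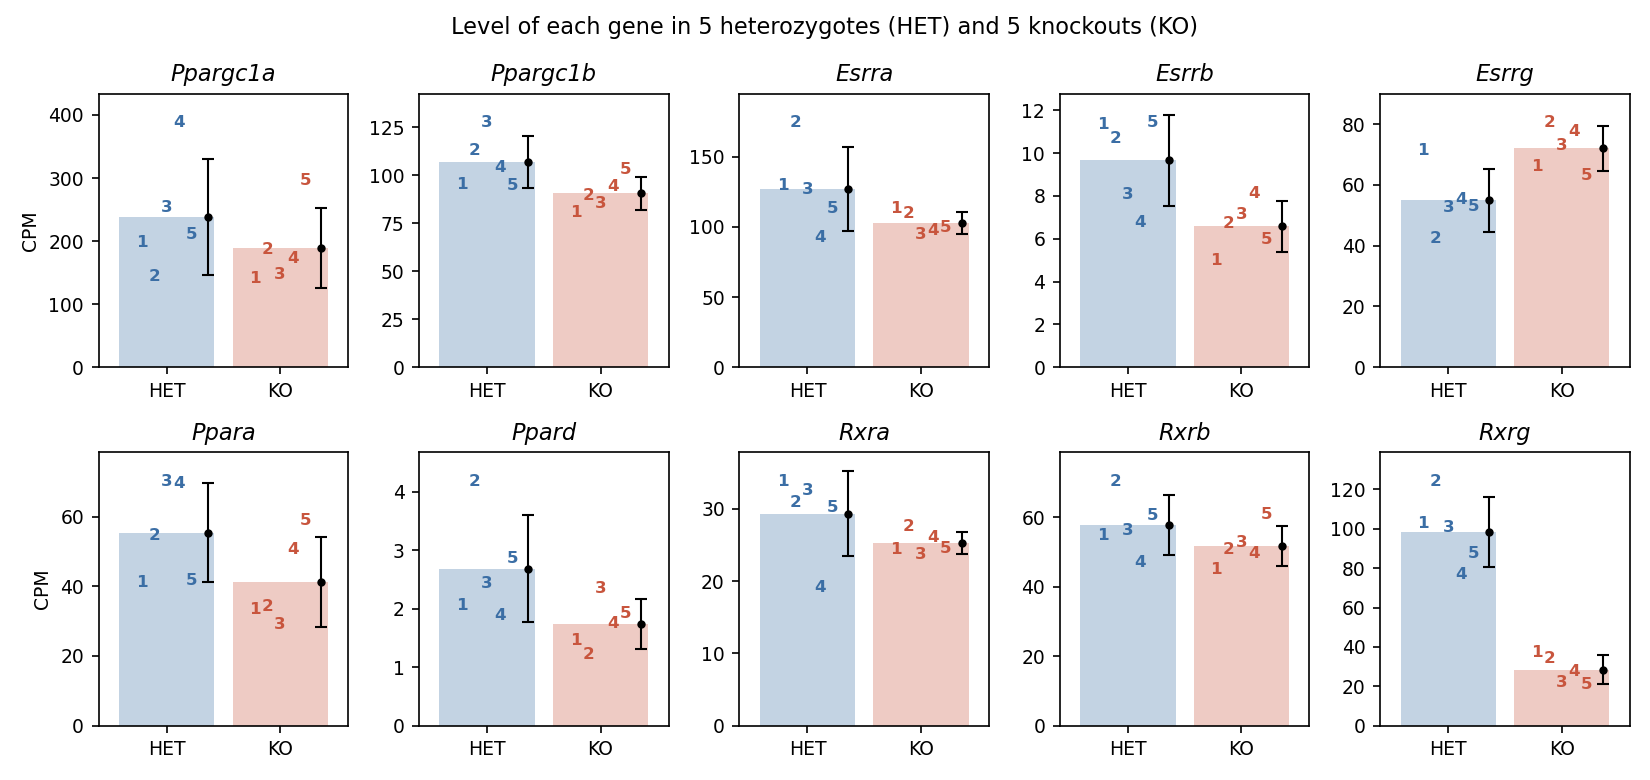
Level of each of the 10 genes in CPM (y axis, from 0) in 5 heterozygotes (HET) and 5 knockouts (KO). Digits are the animals, bars the group means and the error bars 1 SD; the knockouts of Rxrg, at 21.2 to 37.4 CPM, all lie below the heterozygotes, at 76.9 to 124 CPM, while the groups of the other genes overlap.

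Among the RXR genes, Rxrg encodes RXR gamma, the form known mainly from striated muscle and brain. It lies on chromosome 1 at 167598362 to 167639623 (plus strand, 11 exon blocks, build mm10). Its level was 103, 124, 101, 76.9 and 87.5 CPM in heterozygotes 1 to 5 and 37.4, 34.3, 22.1, 27.3 and 21.2 CPM in knockouts 1 to 5. The highest knockout stood well below the lowest heterozygote. Group means were 98.5 ± 17.8 CPM and 28.5 ± 7.21 CPM (mean ± SD over 5 animals each). The knockout was lower by a log2 fold change of -1.79 (95% interval -2.16 to -1.43, SE 0.171, edgeR adjusted p 9.29e-06), which leaves 0.289 of the heterozygote level. The call did not rest on 1 library: with each animal left out in turn the log2 fold change stayed between -1.91 and -1.69. With an endothelial marker score as a covariate it was -1.83 (adjusted p 0.00036).

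Rxra, on chromosome 2 at 27677201 to 27763319, encodes the RXR form found in most tissues. It was at 33.8, 30.9, 32.6, 19.1 and 30.2 CPM in the heterozygotes and at 24.4, 27.5, 23.7, 26.1 and 24.5 CPM in the knockouts. All 5 knockouts lay below the heterozygote median. They were within the range of the heterozygotes, which heterozygote 4 alone extended downward. The log2 fold change of -0.22 (95% interval -0.52 to 0.08, SE 0.139) did not pass over all genes (edgeR adjusted p 0.301). Without heterozygote 4 it was -0.34 and passed (adjusted p 0.0273). Rxrb, the third form, on chromosome 17 at 34031812 to 34038403, was at 46.8 to 70.4 CPM in the heterozygotes (median 56.3) and at 45.0 to 60.8 CPM in the knockouts (median 50.9). These ranges overlapped over most of their length, with a log2 fold change of -0.15 (95% interval -0.40 to 0.09, SE 0.115, edgeR adjusted p 0.389).

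Divided by gene length, Rxrg made up most RXR transcript in the heterozygotes and a minority in the knockouts. The summed RXR level was 53.1 to 83.8 CPM per kb in the heterozygotes and 33.0 to 38.1 CPM per kb in the knockouts, which do not overlap, and the mean fell from 68.1 ± 11.05 to 35.6 ± 1.99 (SD, n = 5), or 0.522 of the heterozygote value. From heterozygote 1 to heterozygote 5 the share of Rxrg in this sum was 62.4, 62.7, 61.7, 61.3 and 57.3%. From knockout 1 to knockout 5 it was 43.1, 38.1, 28.4, 33.6 and 25.2%, below every heterozygote. Rxrb took the first place in every knockout. Its mean share was 30.8% ± 2.15 in the heterozygotes and 52.8% ± 7.08 in the knockouts, while that of Rxra was 8.17% ± 1.15 and 13.5% ± 0.675. The sums and shares are descriptions and were not tested.

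**Figure D2:**
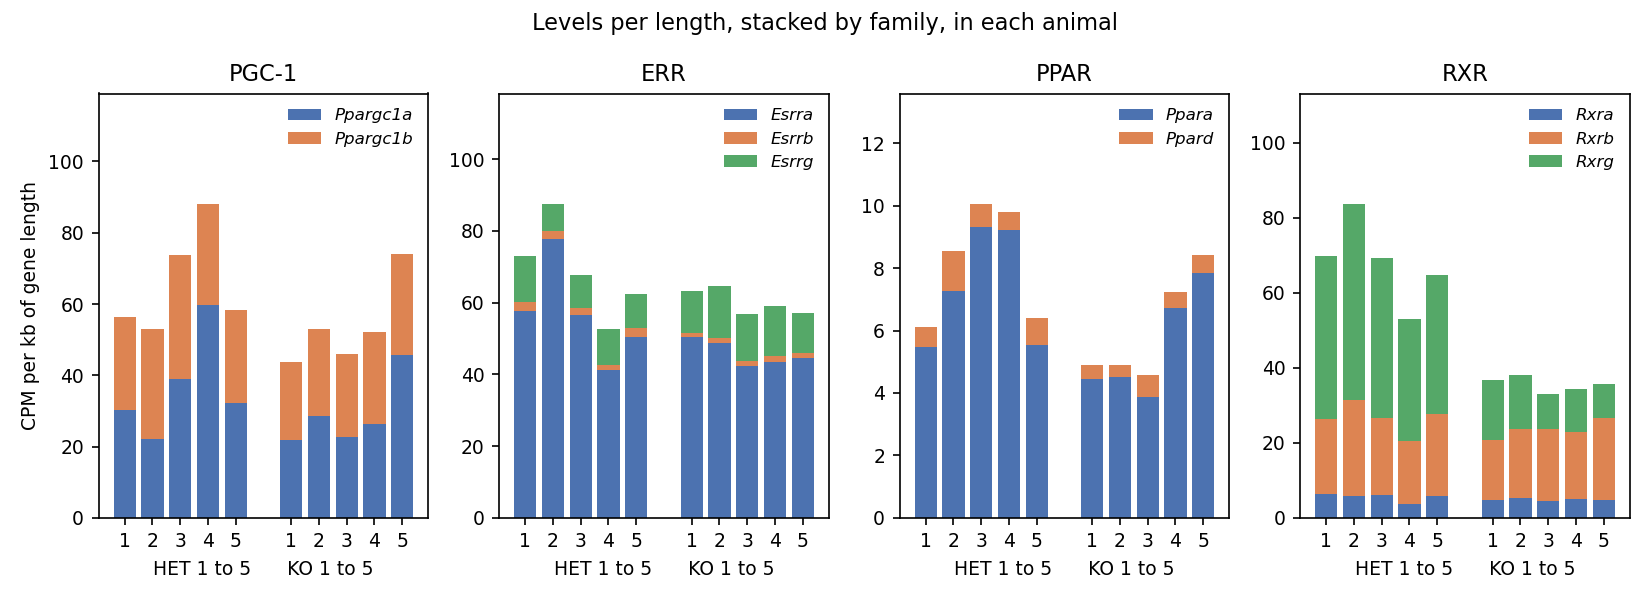
Level per kb of gene length (y axis, CPM per kb, from 0 on a scale of its own in each panel) of the PGC-1, ERR, PPAR and RXR genes, stacked for each animal. The RXR columns of the knockouts end at 33.0 to 38.1 and those of the heterozygotes at 53.1 to 83.8 CPM per kb, and most of the gap is the green part of Rxrg.

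Ratios within an animal do not depend on how libraries are scaled. In 6 such ratios, tested by exact two-sided permutation over all 252 arrangements and adjusted over the 6, Rxrg fell relative to both relatives. The mean log2 ratio of Rxrg to Rxra went from 1.75 ± 0.231 to 0.14 ± 0.333 (difference -1.62, exact permutation p = 0.00794, adjusted p 0.0238). That of Rxrg to Rxrb went from 0.76 ± 0.147 to -0.89 ± 0.505 (difference -1.65, exact permutation p = 0.00794, adjusted p 0.0238). This p is the smallest the design can give, and in both ratios every knockout lay below every heterozygote. Rxrb against Rxra differed by 0.04 (exact permutation p = 0.770, adjusted p 0.794), and the sign of that difference changed when heterozygote 1, heterozygote 3 or knockout 5 was left out (-0.035, -0.012 and -0.031).

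**Figure D3:**
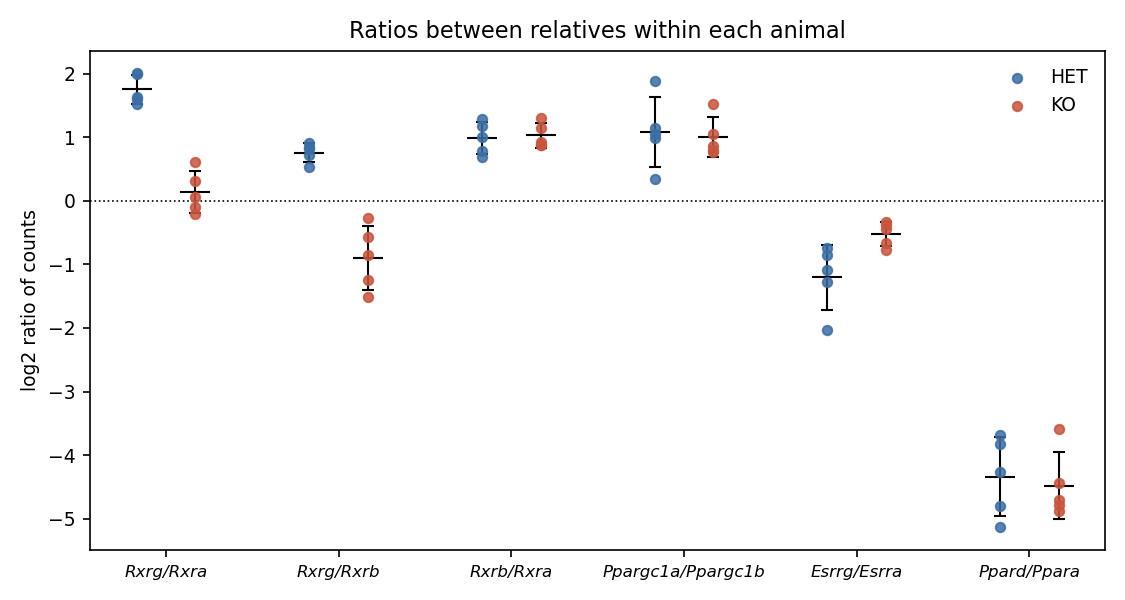
The log2 ratio of the counts of 2 relatives (y axis) in each heterozygote (blue) and knockout (red), with the mean and 1 SD. The ratios of Rxrg to Rxra and to Rxrb part the groups, with differences of -1.62 and -1.65, the Esrrg to Esrra ratio is higher by 0.68 with 1 knockout inside the range of the heterozygotes, and the other 3 ratios overlap broadly.

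Of the estrogen-related receptors, 1 of 3 passed. Esrrg, the form known for its part in the oxidative programme of heart and muscle, rose to 1.31 times the heterozygote level, while the log2 fold changes of Esrra and Esrrb were below 0 and did not pass. The window before the first annotated Esrrg start, at chr1:187608756-187609005, is shown because this is the only one of the 16 windows of these genes with a match to the MEF2 motif, which muscle transcription factors bind (capitals).
Esrrg, first start: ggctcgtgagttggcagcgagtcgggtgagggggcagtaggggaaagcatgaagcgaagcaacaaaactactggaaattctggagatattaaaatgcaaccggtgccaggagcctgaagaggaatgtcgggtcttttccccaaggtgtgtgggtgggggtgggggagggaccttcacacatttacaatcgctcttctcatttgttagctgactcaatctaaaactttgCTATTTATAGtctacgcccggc
The match begins 22 bases before the start, and 0.557% of all windows hold one. The table has 4 windows for Esrrg, and the counts do not say which start was used.

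The level of Esrrg was 71.2, 42.5, 52.4, 55.2 and 53.0 CPM in heterozygotes 1 to 5 and 65.9, 80.4, 73.0, 77.6 and 63.1 CPM in knockouts 1 to 5. All 5 knockouts lay above the heterozygote median and 3 above all heterozygotes, with heterozygote 1 inside the knockout range. Group means were 54.9 ± 10.4 CPM and 72.01 ± 7.39 CPM (mean ± SD over 5 animals each). The rise of 0.39 on the log2 scale (95% interval 0.12 to 0.66, SE 0.126) passed the test with an edgeR adjusted p of 0.0457. This call lay close to the threshold. It was lost when any of heterozygotes 2 to 5 or knockouts 1 to 4 was left out (adjusted p 0.0541 to 0.105), and held without heterozygote 1 (0.0096) or knockout 5 (0.0424). It was also lost with RLE or upper-quartile scaling, with the replicate number as a block and with Y-linked or endothelial expression as a covariate (adjusted p 0.0536, 0.0629, 0.0595, 0.0737 and 0.123). The log2 fold change in these fits was 0.35 to 0.45, the highest with the endothelial covariate.

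Esrra encodes ERR alpha, the main partner of PGC-1 in driving respiratory chain genes, and lies on chromosome 19 at 6910977 to 6921808. It was at 129, 174, 127, 92.5 and 113 CPM in the heterozygotes and at 113, 109, 94.8, 97.4 and 99.9 CPM in the knockouts. The knockouts lay within the range of the heterozygotes. The log2 fold change of -0.31 (SE 0.139, 95% interval -0.60 to -0.01) did not pass over all genes (edgeR adjusted p 0.143), and passed without heterozygote 4 (-0.40, adjusted p 0.0350). Its exons share 50 bases with Trmt112 on the opposite strand. Esrrb, a form better known from stem cells and the inner ear, was low, with 48 to 270 counts per animal. It was at 11.3, 10.7, 8.07, 6.77 and 11.4 CPM in the heterozygotes and 4.998, 6.72, 7.12, 8.11 and 5.94 CPM in the knockouts. Heterozygotes 3 and 4 lay among the knockouts. Its log2 fold change of -0.56 (SE 0.190, 95% interval -0.97 to -0.16) was just short of the threshold (edgeR adjusted p 0.0529). It passed without heterozygote 3, heterozygote 4 or knockout 4 (adjusted p 0.0451, 0.0201 and 0.0441). It also passed with RLE scaling (0.0480), upper-quartile scaling (0.0440), the filter at 5 CPM (0.0464), DESeq2 (0.0229) and voom (0.0313).

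Within an animal, Esrrg rose relative to Esrra. From heterozygote 1 to heterozygote 5 the log2 ratio was -0.86, -2.03, -1.28, -0.74 and -1.09. From knockout 1 to knockout 5 it was -0.78, -0.44, -0.38, -0.33 and -0.66. Only knockout 1 lay inside the heterozygote range. The difference of 0.68 passed (exact permutation p = 0.0159, adjusted p 0.0317). With 1 animal left out it stayed between 0.48 and 0.80, and its adjusted p was 0.0635 in 8 of these 10 tests, all but those without heterozygote 4 or knockout 1. Per length, Esrra stayed the most abundant of the family, at 82.1% ± 4.17 of the ERR sum in the heterozygotes and 76.2% ± 2.55 in the knockouts. The share of Esrrg was 14.8% ± 3.93 and 21.5% ± 2.11, and the ERR sum itself was 68.7 ± 12.99 and 60.2 ± 3.55 CPM per kb.

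Of the coactivators, Ppargc1a, the inducible member known as the central switch of mitochondrial biogenesis, varied most between animals of 1 genotype. It was at 197, 143, 253, 388 and 210 CPM in heterozygotes 1 to 5 and at 141, 186, 147, 172 and 297 CPM in knockouts 1 to 5. Heterozygote 4 and knockout 5 stood above the rest of their groups, and the groups overlapped over most of their range. Group means were 238 ± 92.3 CPM and 188 ± 63.3 CPM (mean ± SD over 5 animals each). The log2 fold change of -0.34 (SE 0.246) did not pass over all genes (edgeR adjusted p 0.379). The 95% interval, -0.86 to 0.19, holds a fall of the size seen in most targets below as well as no change. Without heterozygote 4 the value was -0.09, and without knockout 5 it was -0.56 (adjusted p 0.815 and 0.114). Heterozygote 4 had the highest endothelial marker sum (1176 CPM), but knockout 5 had the lowest of all animals (417 CPM). Knockout 4, with Ppargc1a at 172 CPM, had the highest endothelial sum of the knockouts (746 CPM). The highest atrial marker sum was that of knockout 5. With the endothelial score as a covariate the log2 fold change of Ppargc1a was -0.11 (edgeR adjusted p 0.896). The part of the atrial marker sum was not tested.

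Ppargc1b, its relative with a steadier expression, was at 95.01, 113, 127, 104 and 94.8 CPM in the heterozygotes and at 80.6, 89.6, 85.6, 94.2 and 103 CPM in the knockouts. In 4 of 5 knockouts it was below every heterozygote, and knockout 5 lay among them. The log2 fold change was -0.24 (SE 0.105, 95% interval -0.46 to -0.01) and did not pass over all genes (edgeR adjusted p 0.134). The ratio of Ppargc1a to Ppargc1b differed by -0.08 between the groups (exact permutation p = 0.794, adjusted p 0.794), and by 0.12 without heterozygote 4. Per length the pair was close to even, with Ppargc1a at 54.3% ± 9.26 of their sum in the heterozygotes and 53.0% ± 5.25 in the knockouts.

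Of the fatty-acid receptors, Ppara, the form that dominates in heart and liver, lies on chromosome 15 at 85735564 to 85806851. It was at 41.2, 54.6, 70.1, 69.4 and 41.6 CPM in the heterozygotes and at 33.4, 34.1, 29.1, 50.5 and 59.0 CPM in the knockouts. Knockouts 1 to 3 lay below every heterozygote, and knockouts 4 and 5 lay among them. The log2 fold change was -0.42 (SE 0.208, 95% interval -0.86 to 0.03, edgeR adjusted p 0.182). Ppard, the more widely expressed form, rested on 14 to 49 counts per animal. It was at 2.06, 4.17, 2.43, 1.89 and 2.85 CPM in the heterozygotes and at 1.46, 1.22, 2.34, 1.74 and 1.92 CPM in the knockouts. The groups overlapped, and at this depth the 95% interval of its log2 fold change (-0.60) ran from -1.22 to 0.01 (edgeR adjusted p 0.163). The ratio of Ppard to Ppara differed by -0.14 (exact permutation p = 0.722, adjusted p 0.794), and by 0.028 without heterozygote 2. Ppara made up 89.4% ± 3.94 of their summed level per kb in the heterozygotes and 90.5% ± 3.65 in the knockouts.

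**Figure D4:**
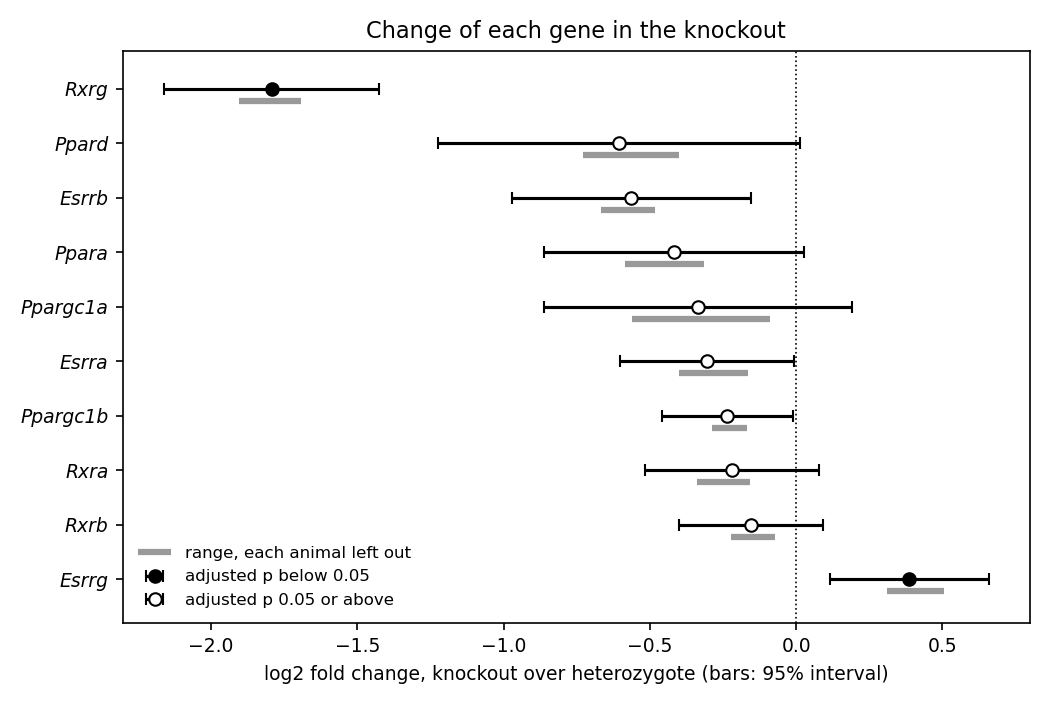
Log2 fold change of each gene, knockout over heterozygote (x axis), with its 95% interval; filled points have an adjusted p below 0.05 and grey bars give the range with each animal left out. Rxrg stands at -1.79, Esrrg at 0.39, and the intervals of Esrrb, Esrra and Ppargc1b end below 0 although their adjusted p is above 0.05.

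The order of the levels per length shows where Rxrg stood. In the heterozygotes it came second, at 41.7 ± 7.54 CPM per kb, after Esrra (56.8 ± 13.4) and before Ppargc1a (36.7 ± 14.2), Ppargc1b (29.2), Rxrb (20.9), Esrrg (9.83), Ppara (7.36), Rxra (5.57), Esrrb (2.09) and Ppard (0.833). In the knockouts it came sixth, at 12.04 ± 3.05 CPM per kb, next to Esrrg (12.9 ± 1.32). The order of the other 9 was the same in both groups. Not all steps of it exceed the spread between animals. In the heterozygotes the ranges of neighbours overlapped from Esrra down to Ppargc1b and from Esrrg down to Rxra. They were apart at the steps from Ppargc1b to Rxrb, from Rxrb to Esrrg, from Rxra to Esrrb and from Esrrb to Ppard. In the knockouts Esrrg and Rxrg overlapped, and the step from Rxrg to Ppara was clear of overlap.

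The genes whose profile over the 10 animals was most like that of Rxrg were found by the root-mean-square difference of log2 CPM after centring each gene, over the 8368 tested genes that averaged 10 CPM or more. They were 2310010M20Rik (difference 0.264), Lrg1 (0.273), Rpl3l (0.273), Wnk2 (0.281) and Lrtm1 (0.282). Rpl3l encodes a muscle form of a ribosomal protein and went from 58.6 ± 17.8 to 21.3 ± 8.06 CPM. Lrtm1 went from 186 ± 23.8 to 70.2 ± 22.5 CPM. All 5 were called lower, with log2 fold changes of -1.79 to -1.41. Likeness over these same animals picks genes with a fall like that of Rxrg, so these calls follow from the choice. The nearest of the other 7 regulators in that set was Esrra, at 0.785.

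Targets of these factors were looked at in lists taken from textbook knowledge. Genes known as ERR and PGC-1 targets, mostly of the respiratory chain and the citric acid cycle, were lower in the knockout in 42 of 53, and 0 were higher (edgeR, 0 higher also at an unadjusted p of 0.05, with DESeq2 and with voom). Their median log2 fold change was -0.52. For the comparison, 19.8% of the 1681 tested genes that averaged 100 CPM or more were called lower and 14.7% higher, with a median of -0.04. The 4 largest falls without overlap were those of Cox7a1, a subunit of cytochrome oxidase of the heart and muscle type, Uqcrc1, a core subunit of complex III, Coq9, needed for coenzyme Q synthesis, and Idh3b, a subunit of the isocitrate dehydrogenase of the citric acid cycle. Cox7a1 was at 547, 433, 427, 592 and 684 CPM in heterozygotes 1 to 5 and at 386, 248, 320, 254 and 263 CPM in knockouts 1 to 5. Every knockout was thus below every heterozygote (log2 fold change -0.87, SE 0.154, edgeR adjusted p 0.00139). Uqcrc1 fell by 0.73, Coq9 by 0.73 and Idh3b by 0.69 on the log2 scale. Tfam (-0.29), Ogdh (-0.28), Mfn2 (-0.10), Gabpa (0.12) and 2310042D19Rik, matched to Perm1 through its RefSeq synonyms (-0.24), were among the 11 that did not pass.

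The ERR response element TCAAGGTCA, on either strand, stood in 2 of the 55 windows of the 44 target genes with a window (3.64%) and in 0.423% of all windows. Both are shown on the plus strand of GRCm38.p6 with their flanks (capitals, the element), at chr2:73911355-73911393 and chr9:50603800-50603828. Their genes lie on the minus strand, Atp5g3 (a subunit of the ATP synthase ring) with the element before its start and Sdhd (a membrane anchor of succinate dehydrogenase) just after it.
Atp5g3: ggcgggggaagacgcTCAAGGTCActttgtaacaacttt
Sdhd: agggcTCAAGGTCActctacaacccggaa
Atp5g3 fell from 2983 ± 356 to 1977 ± 210 CPM (log2 fold change -0.59, edgeR adjusted p 0.00111) and Sdhd from 1484 ± 99.2 to 1122 ± 93.5 CPM (-0.40, adjusted p 0.00430). Most windows of the list hold no such run of letters. The half-site AGGTCA, which the element contains, stood in 29.1% of the windows of ERR and PGC-1 targets and in 26.5% of the 34 windows of PPAR targets. The site of NRF1, a factor of respiratory genes (GCGCANGCGC), stood in 14.5% of the former and 4.603% of all windows. The full PPAR element AGGTCANAGGTCA was in 0 windows of PPAR targets and in 0.0396% of all windows.

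Of 39 genes known as PPAR targets, 35 were tested, 17 were lower and 0 higher (edgeR, 0 higher also at an unadjusted p of 0.05, with DESeq2 and with voom), with a median of -0.57. Over all tested genes 8.64% were called lower, and 19.8% of those that averaged 100 CPM or more. The 4 without a test, Acaa1b, Fgf21, Cyp4a10 and Cyp4a14, were at or near 0. The largest falls without overlap were those of Plin5, Pex11a, Decr1 and Acaa2. Plin5, which coats lipid droplets and ties them to mitochondria, was at 400, 501, 344, 280 and 281 CPM in heterozygotes 1 to 5 and at 188, 197, 158, 167 and 185 CPM in knockouts 1 to 5. The knockouts lay in a narrow band below all heterozygotes (log2 fold change -1.01, SE 0.149, edgeR adjusted p 0.000319). Pex11a, which helps peroxisomes divide, fell by 0.85, Decr1, which prepares unsaturated fatty acids for oxidation, by 0.83, and Acaa2, the last enzyme of the oxidation cycle in mitochondria, by 0.79 on the log2 scale.

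Several genes often used as readouts of PPAR activity did not pass, and they are named here after their values were seen. Pdk4, the kinase that shuts pyruvate dehydrogenase, went from 1610 ± 423 to 1126 ± 321 CPM (-0.52, edgeR adjusted p 0.101). Angptl4 had a log2 fold change of -0.22, Cpt1a of 0.13 and Cd36 of -0.24. Cpt1b was at 11.8 ± 1.82 and 11.6 ± 1.97 CPM, but 2744 bases of its exons are shared with BC090627, so its counts are uncertain. Fabp4 is on this list and on that of endothelial markers (-0.55, adjusted p 0.208).

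**Figure D5:**
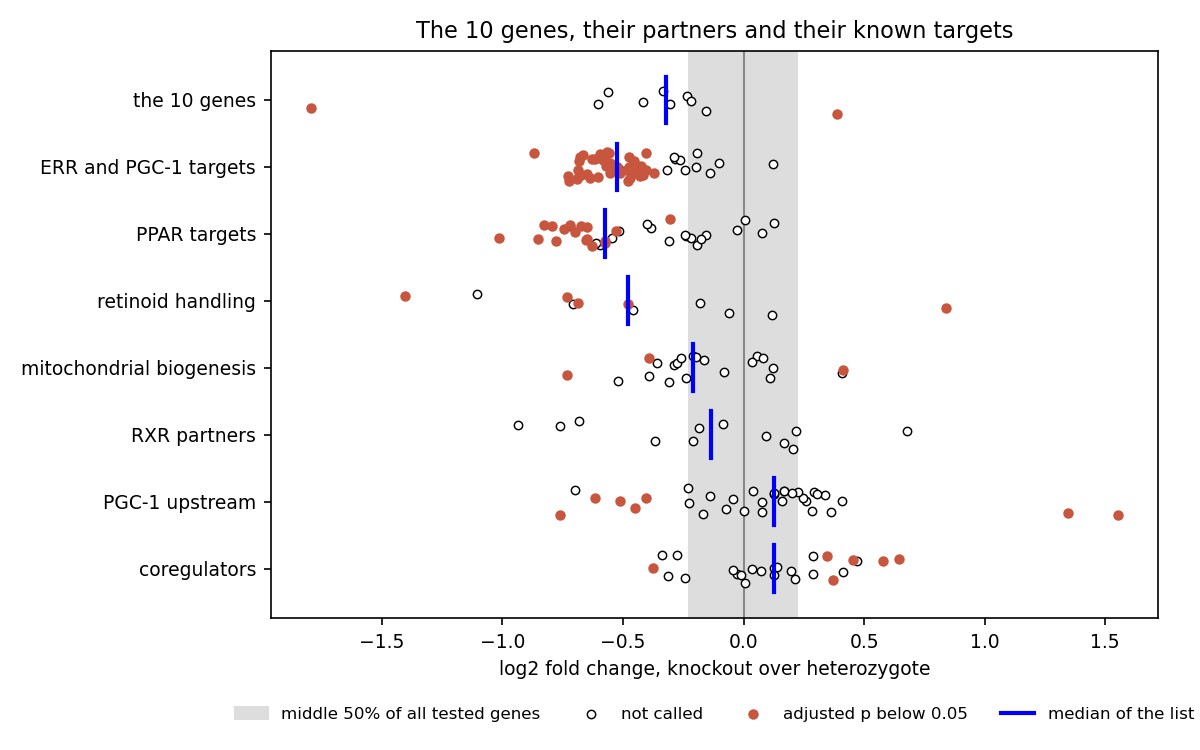
Log2 fold change, knockout over heterozygote (x axis), of every tested gene of the 10 regulators and of each list (rows), filled where the adjusted p is below 0.05, with the median in blue and the middle 50% of all tested genes in grey. The medians of ERR and PGC-1 targets (-0.52) and of PPAR targets (-0.57) lie to the left of the grey band, those of the coregulators (0.13) and of the genes upstream of PGC-1 (0.12) inside it.

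Other nuclear receptors that pair with RXR, such as the thyroid hormone, retinoic acid and liver X receptors, gave no call. Of 14 genes 12 were tested, and 0 passed with edgeR or DESeq2, 1 with voom, and 2 (lower) at an unadjusted p of 0.05. Their log2 fold changes ran from -0.94 to 0.68, with a median of -0.14, so the lack of calls does not show that all were unchanged. Thra, the thyroid hormone receptor of the heart, was at 73.0 ± 12.5 and 77.9 ± 7.37 CPM, and Pparg, the PPAR of fat tissue, at 5.61 ± 2.01 and 5.25 ± 1.24 CPM. In the handling of retinoids, from which the acid forms that bind retinoid receptors are made, 11 of 24 genes were tested, 4 were lower and 1 higher, where 8.64% of all tested genes were called lower and 10.2% higher. Dhrs3, which returns retinaldehyde to retinol, fell from 51.1 ± 10.5 to 30.6 ± 5.48 CPM (log2 fold change -0.73, edgeR adjusted p 0.00438). Retsat, which saturates retinol, fell from 134 ± 30.6 to 83.1 ± 11.4 CPM (-0.69, adjusted p 0.00471).

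Of 25 coregulators of nuclear receptors, 5 (20%) were called higher and 1 (4%) lower. Over all tested genes 10.2% were called higher and 8.64% lower. In either direction the share of the list is near the 18.9% of all tested genes. Ep300, a histone acetyltransferase that PGC-1 recruits, was at 22.2 to 27.9 CPM in the heterozygotes and 34.996 to 43.9 CPM in the knockouts (log2 fold change 0.65, SE 0.0996, edgeR adjusted p 0.000476). Tbl1xr1, which serves in a corepressor complex, rose by a log2 fold change of 0.45, while Hdac3, the deacetylase of that complex, fell by 0.38 on the log2 scale. With the endothelial score as a covariate Ep300 kept its call (adjusted p 0.0121). Tbl1xr1 and Hdac3 did not pass in that fit (edgeR adjusted p 0.0744 and 0.0506), although their log2 fold changes were no smaller, at 0.52 and -0.41. Tbl1xr1 also did not pass without knockout 2 (0.0602).

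Among 33 tested genes listed as acting on Ppargc1a or its protein, 5 (15.2%) were lower and 2 (6.06%) higher. Over all tested genes 8.64% were called lower and 10.2% higher. In either direction the share is again near the 18.9% of all tested genes called. Such action was not measured here. The p38 kinases, which phosphorylate PGC-1 alpha, were split. Mapk12 (p38 gamma, a muscle form) was at 14.7, 18.4, 13.2, 10.99 and 10.6 CPM in heterozygotes 1 to 5 and at 51.3, 36.2, 44.0, 36.3 and 31.8 CPM in knockouts 1 to 5, well above all heterozygotes (log2 fold change 1.55, SE 0.169, edgeR adjusted p 2.66e-05). Mapk14 (p38 alpha) fell by 0.51 on the log2 scale, Sirt3, the main deacetylase of mitochondria, by 0.61 and Prkab1, a subunit of the energy sensor AMPK, by 0.45. Of 21 tested factors that express and copy the mitochondrial genome, 2 were lower and 1 higher, a share no larger than that over all tested genes (18.9%). Their median log2 fold change was -0.21, and 14 of the 21 were below 0, against 5904 of all 11870 tested genes. At an unadjusted edgeR p of 0.05, 8 were lower and 1 higher. Mterfd3, a member of the mitochondrial termination factor family, fell from 27.9 ± 4.28 to 16.8 ± 1.01 CPM (-0.73, edgeR adjusted p 0.000759). Gabpb2, a partner of the respiratory factor GABP alpha, was higher by 0.41, a call lost in 6 of the 10 fits without 1 animal (without heterozygote 1, 3 or 4 or knockout 1, 3 or 5, with adjusted p of 0.0547 to 0.0963). The Gabpb2 call was also lost without the filter (edgeR adjusted p 0.0595), with the replicate block (0.0715) and with the endothelial covariate (log2 fold change 0.32, adjusted p 0.312).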

How the data were processed

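RNA of sorted cardiomyocytes from 10 mice was measured, and animals were grouped by the genotype in the labels. The authors deposited whole-number counts of reads per gene, made per the file headers with featureCounts 1.5.1 against an mm10 annotation archived in 2012. STAR 2.5.3a is listed in the submitters' processing notes, while the alignment names in the header are those another aligner writes, so the aligner is uncertain. Strand was not used per the file headers, so reads of genes that overlap on opposite strands cannot be told apart. Of 14 columns of counts, 4 match no sample and were not used. The deposited counts held 0 rows of the mitochondrial chromosome, so its transcripts could not be looked at.

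All genes were fitted together in edgeR 4.0.16 (R 4.3.3) with filterByExpr (minimum count 10), TMM factors, the quasi-likelihood F test without covariates and Benjamini-Hochberg adjustment, and called at an adjusted p below 0.05. Log2 CPM use a prior count of 1. Ratios were compared by exact permutation (scipy 1.17.1). Both were tested on simulated data. Replicates are separate animals, and each of the 20 pairs within a group differed by more than counting noise (chi-square per degree of freedom 10.8 to 37.5).

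The 10 genes, 7 pathway lists (205 genes, 8 of them in more than one) and marker lists were chosen with earlier results of these data known, and the motifs after seeing the data. Besides the 10 genes and Actn2, the text names from each list the 4 largest falls and rises among called genes of at least 10 CPM without overlap, and the 5 genes most like Rxrg. Some genes that this rule takes in are not reported here. Other genes were named after their values were seen. List symbols missing from the annotation were matched through RefSeq synonyms. RefSeq start windows were found for 9 of the 10 genes (not Ppargc1b), and the RefSeq start of Ppargc1a lies outside its gene in the table.

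The alternatives were RLE, upper-quartile and library-total scaling, dropping the filter or keeping genes of at least 5 CPM on average, a replicate block, Y-linked and endothelial covariates, DESeq2 1.42.0, limma 3.58.1 voom with sample weights, other prior counts, shares without gene length, and leaving out each animal.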

Additional observations from a re-analysis of the deposited data

Results flagged for a closer look

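Values that stood apart within 1 genotype were looked for in 60 groups of 5 values (a level, a share or a ratio), by whether the gap between the extreme animal and its neighbour exceeded 0.71 of the range of the group. Chance gives about 1 such group in 20, and 4 were found, of which 2 are the same observation. Rxra in heterozygote 4 was at 4.26 log2 CPM against 4.92 to 5.08 in the other heterozygotes, a gap of 0.803 of the range. In knockout 3 the share of Ppard in the PPAR sum was 15.9% and that of Ppara 84.1%, against 7.09 to 9.26% and 90.7 to 92.9% in the other knockouts, a gap of 0.753 in both. Ppard had 24 counts in that animal. The share of Rxrg in the RXR sum was 57.3% in heterozygote 5 and 61.3 to 62.7% in the other heterozygotes, a gap of 0.748.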

How the results depend on the processing

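None of the 10 regulators changed the sign of its log2 fold change in the 10 fits without 1 animal or the 10 other settings. Rxrg passed in all of them. Ppara, Ppard, Ppargc1a, Ppargc1b and Rxrb passed in none, Ppard being untested at a mean of 5 CPM. The count of regulators called was 1 with the replicate block, with the Y-linked covariate and with the endothelial covariate, and 1 to 4 with single animals left out (4 without heterozygote 4, and 1 without heterozygotes 2 or 5 or knockouts 1, 2 or 3). The endothelial covariate moved the count over all genes most, to 1136 calls (554 higher, 582 lower) from 2241, and left 1 coregulator, 4 genes upstream of PGC-1 and 3 retinoid genes called. With library totals alone 68.9% of the calls were higher, against 54.3% with TMM. Leaving out single animals gave 1699 to 2258 calls. Voom called 1 RXR partner and 6 mitochondrial biogenesis genes, the replicate block 1 of the latter, and the filter at 5 CPM 3 retinoid genes, with fewer genes tested. With single animals left out, calls numbered 3 to 6 for coregulators (3 without knockout 2), 0 to 1 for RXR partners (1 without knockout 2), 1 to 3 for mitochondrial biogenesis (1 without heterozygote 1 or knockout 3) and 3 to 5 for retinoid handling (3 without heterozygote 5 or knockouts 3, 4 or 5). Over all settings ERR and PGC-1 targets had 35 to 46 calls and PPAR targets 15 to 22, all lower. The same leaving-out gave differences of -0.035 to 0.11 for Rxrb over Rxra (reversed without heterozygote 1, at -0.035, heterozygote 3, at -0.012, and knockout 5, at -0.031), -0.26 to 0.12 for Ppargc1a over Ppargc1b (reversed without heterozygote 4), 0.48 to 0.80 for Esrrg over Esrra and -0.36 to 0.028 for Ppard over Ppara (reversed without heterozygote 2). Where not stated, the cause was not tested.

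Animals with the same replicate number did not deviate together throughout (correlations of -0.06 to 0.19), so the numbers were not taken as pairs. The replicate block gave 2182 calls over all genes. Numbers 4 and 5 matched their own number best in both groups, the other 3 did not. The shares within families depend on the division by length. Without it the share of Rxrg was 53.0% in the heterozygotes and 26.9% in the knockouts. That of Ppargc1a was 67.5% and 66.6%, so the PGC-1 pair was then not close to even. Esrra was at 65.8% and 56.7%, and Esrrg at 29.2% and 39.6%. Depth limits Ppard (14 to 49 counts) and Esrrb most.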
